A study of Mus musculus with 6 samples.

Results

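Immediate-early genes are switched on within minutes when a cell receives a growth factor, a cytokine or a stress, without new protein having to be made first. Fos, Fosb, Jun, Junb and Jund encode subunits of AP-1, a transcription factor in which a Fos protein pairs with a Jun protein, or Jun proteins with each other, through a leucine zipper. Egr1 encodes a zinc finger factor that restrains the division and migration of blood stem cells in the mouse, and Dusp1 and Zfp36 encode inhibitors that end the response. The set described here held 10 genes chosen by name (Fos, Fosb, Jun, Junb, Jund, Egr1, Ier2, Dusp1, Zfp36 and Atf3), of 19057 genes annotated on the array, and was read by all 11 probes with these symbols, of 45281 probes. Junb had 2 probes and each of the other genes had 1.

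RNA came from lineage negative, Kit positive (LK) cells, the marrow fraction that holds stem cells and early progenitors. The cells were sorted from bone marrow of mice 3 months old, either carrying the NHD13 transgene or wild type littermates without it. NHD13 is the usual name of the NUP98-HOXD13 fusion, which occurs in human myelodysplastic syndrome and leukaemia. Each of the 6 bead arrays, 3 of NHD13 and 3 of wild type cells, held RNA pooled from 3 mice, and both genotypes carry the replicate numbers 1 to 3. The labels give neither the transgene's promoter nor the mouse strain, and do not say what a replicate number shares. They also do not say that the pools held different mice, so p-values measure only the spread between these arrays.

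The arrays detected between 15983 and 16836 probes. Detection means a p-value under 0.05 for a signal above that of the negative control beads. Kit, Myb and Gata2, which mark stem and progenitor cells, were detected on all 6 arrays, and Flt3, of multipotent progenitors, on 0. Cd34, of the same marker list, was detected on 3 of 3 wild type and 2 of 3 NHD13 arrays. Genes of maturing neutrophils such as Ltf and S100a8 were detected on all 6 as well, although the sort was for lineage negative cells. On the leading principal component, with 59.1% of all variance, NHD13 replicate 2 was the most distant array. Results are therefore given with and without it where it moves them.

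Promoters of the set are shown for 3 genes that the results turn on: Fos, whose mean differed most between the genotypes, Dusp1, whose genotypes did not overlap, and Zfp36, whose profile over the arrays lay closest to that of Fos within the set. Each is the 250 bases before the RefSeq start site (GRCm38.p6), written 5′ to 3′ on the gene's strand. The Fos window lies at chr12:85473640-85473889 (plus strand), Dusp1 at chr17:26508473-26508722 (minus strand) and Zfp36 at chr7:28379229-28379478 (minus strand). Capitals mark the cyclic AMP response element TGACGTCA or its shorter form TGACG, the Egr site GCGGGGGCG, and the CArG box that serum response factor binds.
Fos: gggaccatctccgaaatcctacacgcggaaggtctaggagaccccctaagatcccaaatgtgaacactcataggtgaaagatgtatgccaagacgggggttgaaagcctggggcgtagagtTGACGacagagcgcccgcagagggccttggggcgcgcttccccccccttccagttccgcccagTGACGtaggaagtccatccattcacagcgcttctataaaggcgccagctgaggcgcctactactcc
Dusp1: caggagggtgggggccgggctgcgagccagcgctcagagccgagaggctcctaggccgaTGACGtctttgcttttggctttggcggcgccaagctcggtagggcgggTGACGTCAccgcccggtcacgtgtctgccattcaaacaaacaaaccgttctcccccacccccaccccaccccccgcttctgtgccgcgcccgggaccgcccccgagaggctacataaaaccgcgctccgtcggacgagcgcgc
Zfp36: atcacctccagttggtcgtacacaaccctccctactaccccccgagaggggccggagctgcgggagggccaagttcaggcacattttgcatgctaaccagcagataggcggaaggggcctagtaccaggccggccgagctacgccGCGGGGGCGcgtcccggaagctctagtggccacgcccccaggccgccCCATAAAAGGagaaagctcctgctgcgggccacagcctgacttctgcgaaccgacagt

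RefSeq promoters were at hand for 8 of the 10 genes, all but Egr1 and Ier2, and both strands were searched. The short element TGACG stood in 5 of the 8 (Atf3, Dusp1, Fos, Fosb and Junb) against 17.8% of all 32851 promoters of the same length. In Fos its matches began 129 and 66 bases before the start site. The full TGACGTCA, which contains TGACG, was found in Dusp1 alone, 143 bases before the start, against 1.55% of promoters. An Egr site, GCGGGGGCG or GCGTGGGCG, was found in Fosb and Zfp36, against 3.06%. Within these windows of 250 bases a CArG box was found in Zfp36 alone, 58 bases before the start, against 1.47%. Bases further upstream were not searched for any motif, so a gene without a match here may have one there. The AP-1 site TGACTCA was in none of these 8 windows and in 4.46% of all promoters. These matches describe the letters and show no binding.

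Of the 11 probes, 8 were detected on at least 3 arrays and were tested, 1 for each of Fos, Fosb, Jun, Junb, Jund, Egr1, Dusp1 and Zfp36. All 8 had a lower mean in NHD13 than in wild type cells, where 44.4% of all 16518 tested probes did. Their median difference was -0.86 on the log2 scale, against 0.04 over all tested probes. None passed the test (limma, Benjamini-Hochberg adjusted over all tested probes, threshold 0.05), which called 0.254% of tested probes lower and 0.406% in either direction. At an unadjusted p under 0.05, 3 of the 8 were lower (Jun, Egr1 and Dusp1), against a background of 3.7%. The same 3 genes were those in which every NHD13 array lay below every wild type array, as in 5.13% of tested probes. With the replicate number as a block, 0 of the 8 passed, where 0.478% of tested probes did, and 6 had an unadjusted p under 0.05, against a background of 8.51%. The set and the lists below were chosen with earlier results of these data known. Comparisons with all tested probes or genes therefore only describe them and are no independent support. In bulk RNA, fewer cells of a type that express a gene and less RNA per cell cannot be told apart.

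**Figure D1:**
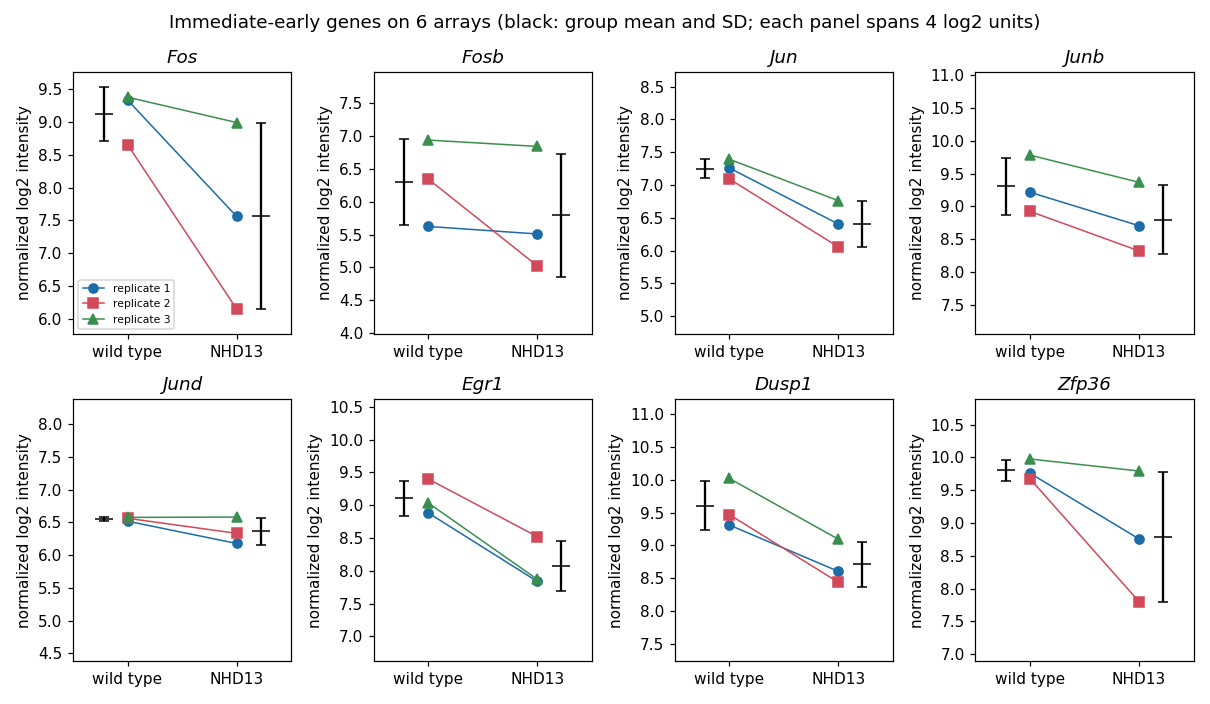
Normalized log2 intensity (vertical axis) of the 8 tested genes in wild type and NHD13 cells, with one line per replicate number and the group mean and SD (n = 3) in black. Each panel spans the same number of log2 units but starts at its own level; Jun, Egr1 and Dusp1 do not overlap between genotypes, and Fos and Zfp36 spread widely among NHD13 arrays.

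Fos, the founding member of the family, had the largest mean difference of the set. Its normalized log2 intensity was 9.33, 8.65 and 9.38 on wild type arrays 1, 2 and 3 and 7.56, 6.15 and 8.99 on the NHD13 arrays of the same numbers. NHD13 replicates 1 and 2 lay below every wild type array, while NHD13 replicate 3 lay above wild type replicate 2, so the groups overlapped. The means were 9.12 ± 0.41 in wild type and 7.57 ± 1.42 in NHD13 cells (SD, n = 3 each), a 2.94-fold lower mean in NHD13. The difference of -1.56 ± 0.66 (SE; 95% interval -3.13 to 0.02) did not pass (limma adjusted p = 0.65). Leaving out NHD13 replicate 2 gave -0.85, and leaving out NHD13 replicate 3 gave -2.27. The raw signal showed the same spread before any correction: 937, 522 and 732 in wild type and 302, 181 and 622 in NHD13 cells, in intensity units, where the median over all probes of an array was 145.4 to 163.2.

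Fosb, whose protein also pairs with Jun proteins, was close to the detection limit. It measured 5.62, 6.35 and 6.94 in log2 on the wild type arrays and 5.51, 5.02 and 6.84 on the NHD13 arrays, and it was not detected on NHD13 replicate 2. Both arrays numbered 3 were the highest of their genotype and the groups overlapped. The difference was -0.51 ± 0.52 (SE, 95% interval -1.75 to 0.73, adjusted p = 0.81 by limma), with -0.13 when NHD13 replicate 2 was left out and -1.04 when NHD13 replicate 3 was. Leaving out wild type replicate 3 gave -0.19, and leaving out wild type replicate 1 gave -0.85.

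Jun, the usual partner of Fos, varied least around its group means among the 3 genes that did not overlap. It measured 7.26, 7.09 and 7.39 in wild type and 6.41, 6.06 and 6.76 in NHD13 cells. Every NHD13 array lay below the lowest wild type array. The difference was -0.84 ± 0.21 (SE, 95% interval -1.35 to -0.33), a 1.79-fold lower mean, with an unadjusted p of 0.0059 and an adjusted p of 0.33 in limma. It was -0.67 when NHD13 replicate 2 was left out and -1.02 when NHD13 replicate 3 was. The raw signal was low, from 178 on NHD13 replicate 2 to 327 on wild type replicate 1, and without background correction the difference was -0.39.

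Junb, a Jun protein that limits the expansion of myeloid cells in the mouse, measured 9.22, 8.92 and 9.78 in wild type and 8.70, 8.32 and 9.37 in NHD13 cells. Within each number the NHD13 array was the lower, yet NHD13 replicate 3 exceeded wild type replicates 1 and 2, so the genotypes overlapped. The difference was -0.51 ± 0.33 (SE, 95% interval -1.29 to 0.27, adjusted p = 0.72 by limma). It was -0.27 when NHD13 replicate 2 or wild type replicate 3 was left out, and -0.79 when NHD13 replicate 3 was. The other Junb probe, designed on another transcript record, was detected on 0 of 6 arrays (detection p from 0.27 to 0.86) and gave no second reading of the gene.

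Jund, the Jun protein whose level depends least on stimulation, differed least between the genotypes among the 8 tested genes. It measured 6.52, 6.56 and 6.57 in wild type and 6.18, 6.33 and 6.58 in NHD13 cells. The wild type arrays were within 0.03 of each other in SD, and NHD13 replicate 3 was the highest of the 6. The difference was -0.19 ± 0.16 (SE), and its 95% interval of -0.57 to 0.19 leaves room for a change either way (adjusted p = 0.78 by limma). Without NHD13 replicate 1 it was -0.095, and without NHD13 replicate 3 it was -0.30.

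Egr1 had the smallest p-value of the set. It measured 8.88, 9.40 and 9.03 in wild type and 7.84, 8.52 and 7.87 in NHD13 cells, and the groups did not overlap. The means were 9.10 ± 0.27 and 8.08 ± 0.39 (SD, n = 3 each), a 2.04-fold lower mean in NHD13. The difference of -1.03 ± 0.24 (SE, 95% interval -1.61 to -0.45) had an unadjusted p of 0.0042 and an adjusted p of 0.28 in limma, and ranked 249 of 16518 probes by p-value. With the replicate block the adjusted p was 0.077. Both arrays numbered 2 were the highest of their genotype for Egr1, whereas for Fos, Jun, Junb and Zfp36 both were the lowest. Without NHD13 replicate 2 the difference was -1.25.

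Ier2 and Atf3 could not be compared. Ier2, a nuclear protein gene of the immediate-early response, was detected on wild type replicate 3 at a log2 value of 5.67 and on none of the other 5 arrays, where it lay between 4.72 and 4.91. Atf3, a stress-induced partner of Jun proteins, was detected on 0 of 6 arrays, with log2 values of 4.53 to 4.86 and detection p-values of 0.35 to 0.89. These probes set no level for either gene beyond being not well above background.

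Dusp1, a phosphatase that switches off MAP kinases, measured 9.31, 9.47 and 10.02 in wild type and 8.61, 8.44 and 9.10 in NHD13 cells. Every NHD13 array lay below the lowest wild type array. The means were 9.60 ± 0.37 and 8.71 ± 0.34 (SD, n = 3 each), a 1.85-fold lower mean in NHD13. The difference was -0.89 ± 0.26 (SE, 95% interval -1.50 to -0.27), with an unadjusted p of 0.011 and an adjusted p of 0.44 in limma. It was -0.75 when NHD13 replicate 2 was left out, -1.08 when NHD13 replicate 3 was and -0.68 when wild type replicate 3 was.

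Zfp36, which encodes tristetraprolin, a protein that speeds the decay of mRNAs with AU-rich elements, measured 9.76, 9.68 and 9.98 in wild type and 8.76, 7.80 and 9.79 in NHD13 cells. The wild type arrays lay within an SD of 0.16, against 0.995 among the NHD13 arrays. NHD13 replicates 1 and 2 were below every wild type array and NHD13 replicate 3 was inside the wild type range. The difference was -1.02 ± 0.46 (SE, 95% interval -2.12 to 0.08, adjusted p = 0.66 by limma), with -0.53 when NHD13 replicate 2 was left out and -1.52 when NHD13 replicate 3 was.

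Read by replicate number, the genotype difference was below 0 in 8 of the 8 tested genes for number 1, in 8 for number 2 and in 7 for number 3, where Jund was the exception at 0.005. A probe lower in NHD13 within all 3 numbers made up 16.9% of tested probes. The median difference of the 8 was -0.78 in number 1, -1.03 in number 2 and -0.40 in number 3, against 0.04, 0.04 and 0.02 over all tested probes. Fos differed by -1.77, -2.50 and -0.39 in numbers 1, 2 and 3. Zfp36 differed by -1.001, -1.87 and -0.18. These 2 genes thus had their smallest difference in number 3. Egr1 went the other way in order, with -1.04, -0.88 and -1.16, and Junb kept close values of -0.51, -0.60 and -0.41.

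**Figure D2:**
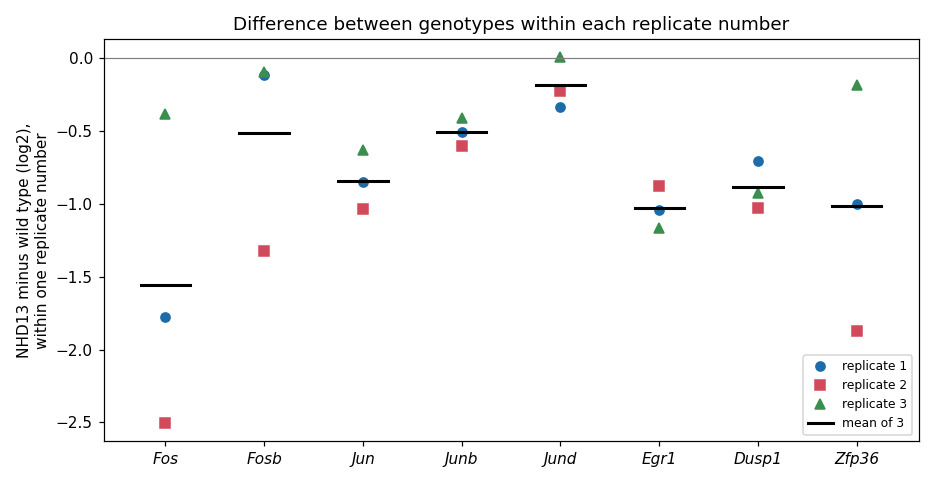
NHD13 minus wild type in log2 (vertical axis) for each tested gene, taken within replicate numbers 1, 2 and 3, with the mean of the 3 as a black bar. Egr1, Dusp1, Jun and Junb show 3 values close together below 0, while Fos, Fosb and Zfp36 are spread, from -2.50 to -0.39 in Fos.

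The genes were also read by the replicate number itself, across the genotypes. Wild type replicate 3 was the highest of the 6 arrays for 6 of the 8 genes, as for 14.4% of tested probes, and NHD13 replicate 2 was the lowest for 6, as for 20%. An F-test of replicate number, with genotype in the same limma fit, called 0 of the 8 and 0.157% of all tested probes. At an unadjusted p under 0.05 it had 5 of the 8 (Fos, Fosb, Junb, Egr1 and Dusp1), where the background was 19.8%. Junb had the smallest p, with number means of 8.96, 8.62 and 9.57 for numbers 1, 2 and 3 (F = 18.6, unadjusted p = 0.0045, adjusted p = 0.17 in limma). Fos had number means of 8.45, 7.40 and 9.18 (adjusted p = 0.24), and Fosb of 5.57, 5.68 and 6.89 (adjusted p = 0.20). Egr1 alone had number 2 as its highest mean, at 8.36, 8.96 and 8.45 (adjusted p = 0.21).

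The spread within genotypes differed widely over the set. The pooled SD was 1.04 in log2 for Fos, higher than in 97.7% of tested probes, 0.81 for Fosb (96.1%) and 0.71 for Zfp36 (94.8%). It was 0.27 for Jun, near the median of 0.27 over all tested probes, and 0.15 for Jund, above 15.8% of them. Bead counts of 28 to 51 per member probe gave a bead standard error of 3.43% to 6.78% of the raw signal, which covers the reading of an array and not the making of its RNA. The root mean square distance between the centred profile of Fos and that of another gene over the 6 arrays was 0.40 for Zfp36 and 0.73 to 0.76 for Jun, Junb, Dusp1 and Fosb. It was 1.05 for Jund and 1.12 for Egr1, with a median of 1.21 over all 9000 tested genes. Outside the set, the 5 nearest profiles to Fos by this measure were those of Parp8 (0.10), B3gnt5 (0.12), Bex6 (0.16), Pcp4l1 (0.17) and Tpm4 (0.18). The 5 nearest to the mean profile of the 8 genes were Mfge8 (0.09), Zdhhc8 (0.10), Il16 (0.11), Gpsm1 (0.11) and Macroh2a1 (0.12). These are descriptions over 6 arrays that share the genotype and number differences given above.

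Markers of several cell types, myeloid cells among them, also had lower means in NHD13. They did not follow these genes on every array, and their part in the differences was not tested. All 7 of 7 monocyte and macrophage markers were detected, which for these lists means on at least 1 array. All 7 had a lower mean in NHD13, as 45.9% of all tested genes did, and 0 were called, against 0.556% of all tested genes. The median difference of these markers was -1.31. Their summed normalized intensity ranged from 3570 to 10195 over wild type arrays and from 384.0 to 6242 over NHD13 arrays. All 5 of 5 granulocyte-monocyte progenitor markers were detected, with a median difference of -1.07 and summed intensities of 84213 to 159724 in wild type and 17411 to 155218 in NHD13 cells. NHD13 replicate 2 was the lowest array for both sums. Of 7 markers of maturing neutrophils, 6 were detected and Mmp8 was not. Their sum ranged from 2710 to 72842 in wild type and from 3243 to 57642 in NHD13 cells, low on both arrays numbered 2 and high on both numbered 3. All 5 of 5 mast cell and basophil markers were detected too, with a median difference of -1.56 and sums of 1482 to 7931 in wild type and 338.7 to 2803 in NHD13 cells. Of 5 measured markers of the sorted stem and progenitor cells 4 were detected and Flt3 was not. All 4 had a lower mean in NHD13, with 0 called, a median difference of -0.24 and Cd34 at -1.73. Their sums were 10004 to 13365 in wild type and 8039 to 10730 in NHD13 cells. Of 6 B cell markers 4 were measured, all 4 with a lower mean in NHD13 and 0 called, at a median of -0.62 and sums of 439.6 to 1170.3 and 260.7 to 732.9. The T and NK cell list had 2 tested genes with a median of -0.52, and of the stromal and endothelial list Pecam1 alone was tested, at -1.04. Megakaryocyte markers had a median of 0.05, with 1 of 5 below 0. Erythroid markers lay the other way: 5 of 7 listed genes were measured, 0 of them had a lower mean in NHD13, the median difference was 0.47, and the sums were 10658 to 23409 and 12823 to 31056. On wild type replicate 2, which had the lowest neutrophil sum of the 6 arrays, Fos, Jun, Junb and Zfp36 were at their lowest wild type values, Egr1 was at its highest value of 9.40, and Fosb, Jund and Dusp1 lay between the other wild type arrays.

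**Figure D3:**
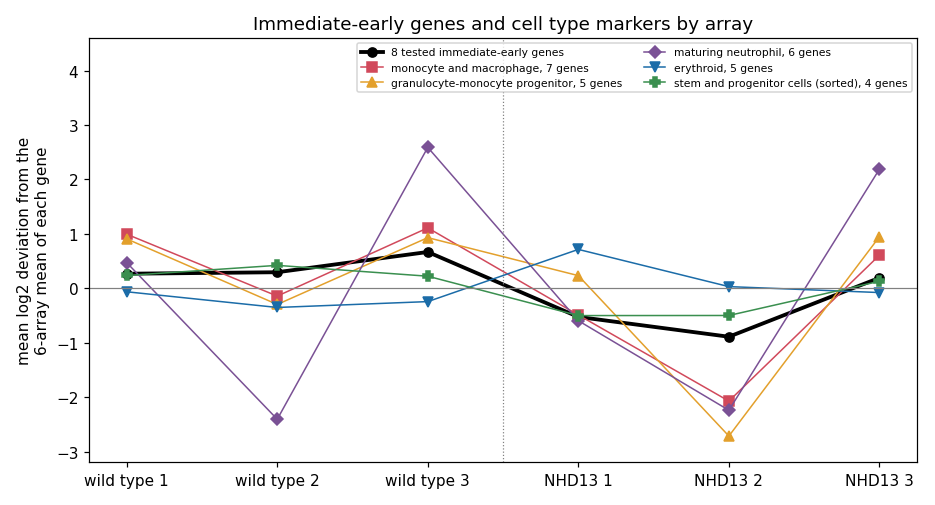
Mean log2 deviation from each gene's 6-array mean (vertical axis) on each array. The 8 tested immediate-early genes are in black. Marker lists of the sorted stem and progenitor cells and of other cell types are in colour. The immediate-early genes run from -0.89 on NHD13 replicate 2 to 0.67 on wild type replicate 3; the monocyte list runs from -2.07 to 1.11 on the same arrays.

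The mean of the 8 centred profiles was 0.27, 0.29 and 0.67 on wild type arrays 1, 2 and 3 and -0.53, -0.89 and 0.19 on NHD13 arrays 1, 2 and 3. NHD13 replicate 3 thus lay just under the wild type range. The stem and progenitor list was at 0.23, 0.42 and 0.22 on the wild type arrays and at -0.50, -0.50 and 0.13 on the NHD13 arrays. On NHD13 replicate 3 the monocyte list was at 0.61, inside its wild type range of -0.14 to 1.11, and the granulocyte-monocyte progenitor list was at 0.95, its highest. On NHD13 replicate 1 the granulocyte-monocyte progenitor list was at 0.23, inside its wild type range of -0.30 to 0.93, and the monocyte list was at -0.49, below it. Within number 3 the granulocyte-monocyte progenitor list was at 0.93 in wild type and 0.95 in NHD13 cells. The monocyte list was at 1.11 and 0.61, and the mast cell and basophil list at 2.09 and 0.12. Marker levels were thus not matched between these arrays. On this pair Egr1 differed by -1.16, Dusp1 by -0.93 and Jun by -0.63, and the part of cell makeup in these differences was not tested. The other 5 genes were nearer 0 on that pair of arrays, with -0.41 for Junb, -0.39 for Fos, -0.18 for Zfp36, -0.10 for Fosb and 0.005 for Jund.

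Other genes of the AP-1 family gave lower means in NHD13 without passing. Of 8 listed genes 5 were tested, 5 were below 0 and 0 were called, with a median of -0.64, where 45.9% of all tested genes were below 0 and 0.556% were called. Fosl2, another Fos subunit, measured 7.97, 6.83 and 8.59 in wild type and 6.83, 4.65 and 8.45 in NHD13 cells. It differed by -1.15 (adjusted p = 0.77 by limma) and was detected on 2 of 3 NHD13 arrays. Batf, an AP-1 factor without an activation domain, measured 8.39, 8.05 and 7.57 in wild type and 7.26, 7.08 and 7.54 in NHD13 cells. Its groups did not overlap, as in 12% of tested probes in either direction. It differed by -0.71 (adjusted p = 0.54 by limma). Jdp2, a repressor that pairs with Jun, differed by -0.64 (adjusted p = 0.79) and was detected on 2 of 3 NHD13 arrays.

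Of 13 other immediate-early transcription factor genes 6 were tested, 5 below 0 and 1 above, with 0 called and a median of -0.32. Csrnp1, a nuclear transcription factor, differed by -1.24 (adjusted p = 0.62), with 9.14, 7.95 and 9.06 in wild type and 7.64, 6.56 and 8.23 in NHD13 cells. Nr4a2, an orphan nuclear receptor, was the member above 0, at 0.53 (adjusted p = 0.68). Klf4, a zinc finger factor of monocyte differentiation, differed by -0.48 (adjusted p = 0.80) and was detected on 2 of 3 wild type and 1 of 3 NHD13 arrays.

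Of 19 further induced and feedback genes 11 were tested, 9 below 0 and 2 above, with 0 called and a median of -0.52. Dusp5, a phosphatase of ERK kinases, differed by -1.04 (adjusted p = 0.70) and was detected on 2 of 3 NHD13 arrays. Ier3, a survival gene of the immediate-early response, measured 9.88, 9.73 and 10.001 in wild type and 8.72, 8.72 and 9.56 in NHD13 cells. It differed by -0.87 (adjusted p = 0.45 by limma), and its groups did not overlap. Nor did those of Dusp6, at -0.38 (adjusted p = 0.68 by limma). In either direction 12% of tested probes did not overlap. Dusp2, a phosphatase of the nucleus, differed by -0.72 (adjusted p = 0.65).

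The kinases and factors that act upstream were spread around 0. Of 18 listed genes 12 were tested, 5 below 0 and 7 above, with 0 called and a median of 0.03. Srf, the serum response factor that binds CArG boxes, differed by 0.04 (adjusted p = 0.95) and was chosen after its value was seen. Elk3, which binds beside it, differed by -0.64 (adjusted p = 0.62) and Mapk8, a kinase of Jun, by -0.41 (adjusted p = 0.70). Creb1, which binds the cyclic AMP response element, differed by 0.47 (adjusted p = 0.65 by limma). The groups did not overlap for Elk3, lower in NHD13 and detected there on 1 of 3 arrays. Nor did they for Creb1 and Map2k4 (0.16), both higher in NHD13. In either direction 12% of tested probes did not overlap.

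**Figure D4:**
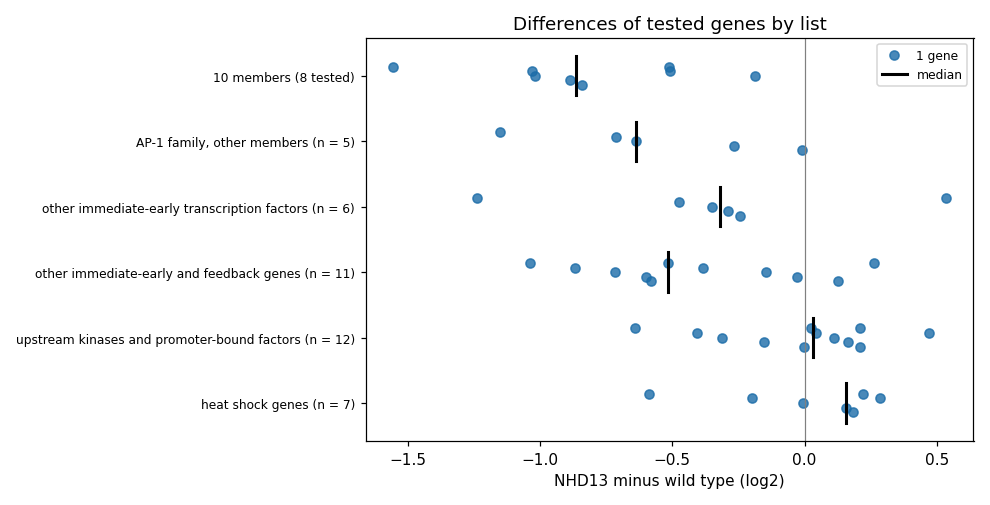
NHD13 minus wild type in log2 (horizontal axis) for every tested gene of the set and of 5 related lists, 1 point per gene, with each list's median as a black bar. The medians are -0.86 for the set, -0.64, -0.32 and -0.52 for the other AP-1, transcription factor and feedback lists, and 0.03 and 0.16 for the upstream and heat shock lists.

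Heat shock genes, which like the immediate-early genes respond to stress of cells, were the related list in which the F-test of replicate number made calls. Of 10 listed genes 7 were tested, 0 were called between genotypes, and the median difference was 0.16, with 3 below 0 and 4 above. The groups of Dnajb1 (0.16, higher in NHD13) did not overlap, as in 12% of tested probes in either direction. Hspa1a and Hspa1b, near-identical copies of an inducible HSP70 gene, changed with the replicate number (limma adjusted p = 0.033 and 0.018), in a test that called 0.157% of all tested probes. Over 12 alternatives Hspa1a was called in 6 and Hspa1b in 7, with adjusted p-values up to 0.23 and 0.10. Neither was called with the authors' processed values or when replicate 1 or 2 of either genotype was left out, and without NHD13 replicate 3 Hspa1a was not (adjusted p = 0.053). Hspa1a measured 9.52, 4.57 and 10.67 on wild type arrays 1, 2 and 3 and 8.36, 4.71 and 9.92 on NHD13 arrays 1, 2 and 3, and was not detected on either array numbered 2. Since the copies are nearly the same in sequence, their probes may not read them apart. On the same pair of arrays Fos measured 8.65 and 6.15, and Egr1 was the highest of its genotype. The largest genotype differences of the list were -0.59 for Hspa1a, 0.28 for Hsph1 and 0.22 for Hspd1 (adjusted p = 0.94, 0.81 and 0.79 by limma).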

How the data were processed

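The members and gene lists were chosen with earlier results of these data known. The deposited table gives, per the file headers, the average bead intensity of each probe, its count of beads, the bead standard error (a signal in intensity units) and a detection p-value. The authors had neither subtracted background from these values nor normalized them, per the file headers. A second deposited table holds their processed intensity values, of which the software is not given in the sources used here.

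The first table went through limma 3.58.1 (R 4.3.3): normexp, whose negative controls were inferred from the detection column, an added offset of 16, quantile normalization and the log2 scale. A probe was tested (16518 of 45281) where its detection p was under 0.05 on at least 3 of 6 arrays. Each was fitted with lmFit and eBayes, two-sided, with Benjamini-Hochberg adjustment over all tested probes. Probe symbols came from the platform annotation; all 11 member probes were found in RefSeq by gene ID. For gene lists, a gene was read by its brightest tested probe. Of each related list, called genes, the 3 tested genes with the largest absolute difference and genes whose groups did not overlap were named. Levels were not compared between genes. The genotype and number fits were run on simulated data with noise independent between arrays. The genotype simulation held no effect shared by same-numbered arrays, so it did not check that fit under such sharing.

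Once group means were removed, same-numbered arrays correlated over probes at 0.19 (number 1), 0.67 (number 2) and 0.54 (number 3). All exceed 0.1, the rule for reading numbers as pairs, though arrays of different number and genotype reached 0.24. The block of replicate numbers was therefore fitted as an alternative. Further alternatives were raw signal without normexp, scaling to a common median, the authors' processed intensities, filters at 0 and 6 arrays, a trended robust variance, an offset of 50, array weights and leaving out arrays.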

Additional observations from a re-analysis of the deposited data

How the results depend on the processing

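The 8 tested genes kept a mean below wild type in every alternative that tested them, 17 each and 16 for Fosb, which the filter on all 6 arrays left out. Their adjusted p-values ran from 0.029 to 0.9996. Only array weights called members, 2 in all (Egr1 with -1.14, adjusted p = 0.029, and Jun with -0.86, adjusted p = 0.029). These weights were 5.02 for NHD13 replicate 1 and 0.35 for NHD13 replicate 3. The replicate block called 0 of the 8 and changed no call of a member. Leaving out single arrays called 0 members each time. Over all tested probes the main count of 67, 37.3% of them higher in NHD13, became 36 without background correction, 22 with the authors' processed values (63.6% higher), 11 with detection on all 6 arrays, and 579 with array weights. Dropping both arrays with the number 2, which was decided after seeing the data, gave 21. Leaving out 1 array gave 1 to 88: 1 and 38 when wild type replicates 1 and 2 were left out, 5 for wild type replicate 3 and 20 for NHD13 replicate 1. With the replicate block it was 79. The F-test of replicate number called 26 probes, and 505 without background correction, 41 with median scaling, 1 with the authors' values, 605 with an intensity trend and robust variance together, 125 with an offset of 50 and 0 to 170 without 1 array, being 0 when replicate 1 or 2 of either genotype was left out. Of the members it called 1, Junb, without background correction (adjusted p = 0.037) and with an intensity trend and robust variance (adjusted p = 0.035). Without background correction the difference was -1.01 for Fos, -0.39 for Jun, -0.17 for Fosb and -0.07 for Jund, and the spread over number means was 0.50 for Fosb, 0.22 for Jun and 0.09 for Jund. Taking the median over a gene's tested probes changed nothing, since each of the 8 genes had 1 tested probe. Without a detection filter all 11 probes were below 0, of which Ier2, Atf3 and the other Junb probe were near background. Signal near background limits Fosb, Ier2 and Atf3. Jun and Jund were also dim, with raw signals of 178 to 327 and 189 to 247, where array medians were 145.4 to 163.2. The 3 arrays per genotype limit the precision of every difference.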
